A study of Mus musculus with 30 samples.

Results

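The kinesin, dynein and dynactin genes encode the microtubule motors that carry cargo along axons, and their transcripts were described in 3 pools of spinal motoneurons of the adult mouse. The members were all probe sets of the array that had a single gene symbol and whose symbol named a kinesin heavy chain (Kif), a kinesin light chain (Klc), a cytoplasmic dynein chain (Dync, Dynl) or a dynactin subunit (Dctn), with older names updated. This rule used no measured value. It found 44 of the 12422 tested probe sets, which stood for 33 of 8251 genes. Another 2 probe sets carried several Dynlt1 symbols, so they were not members, and neither passed the test in any comparison.

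The first pool, IML, came from the intermediolateral column, whose autonomic preganglionic motoneurons control the viscera. The lateral motoneurons (LMN) and the medial motoneurons (MMN) are somatic and drive skeletal muscle. Every pool was taken by laser capture from each of 5 adult sham-operated mice, with 400 captures per pool, and the labels name neither a strain nor a genotype. The RNA of each sample was split and amplified in a double-round protocol for 2 arrays, and their mean log2 intensity is the value of a sample, so every n is a number of animals.

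Kinesins mostly walk towards the plus ends of microtubules, which in axons point away from the cell body, so they carry vesicles, mitochondria and cytoskeletal proteins outwards. Cytoplasmic dynein walks the opposite way and returns endosomes and survival signals to the soma, with dynactin as the cofactor that links it to cargo and keeps it on its track. Motoneurons have some of the longest axons in the body. Mutations in KIF5A, DCTN1 and DYNC1H1 cause motoneuron or axonal disease in humans, and Dync1h1 mutations do so in mice.

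Before the motors are compared, several features of the samples are given. Of 3 measured markers of cholinergic motoneurons, Slc18a3, the vesicular acetylcholine transporter, passed between IML and LMN. It averaged 7.18 in IML, with samples at 6.81 to 7.57, 8.73 in LMN and 8.30 in MMN. The LMN sample of animal 2 was at 7.12, against 8.36 to 10.11 in the other LMN samples. The motor calls and the direction counts over probe sets are therefore also given without that sample. The MMN samples of animals 2 and 3, at 7.58 and 7.40, were also near or within the IML range, against 7.97 to 9.87 in the other MMN samples. No alternative left out these MMN samples alone. The other two did not pass: Prph, a neuronal intermediate filament, averaged 9.75 in IML, 10.33 in LMN and 10.37 in MMN, and Isl1, a transcription factor of motoneurons, 5.74 in IML, 5.61 in LMN and 5.59 in MMN. All 10 meningeal and fibroblast markers were measured, and their summed intensity was 19910 to 27340 in IML, 7288 to 18910 in LMN and 9361 to 29680 in MMN, with 8 of the 10 higher in IML than in LMN at an adjusted p under 0.05. The 9 markers of microglia summed to 1267 to 1853 in IML, 1038 to 1200 in LMN and 1034 to 1436 in MMN, with 6 of the 9 higher in IML than in LMN. Of 6 measured astrocyte markers, which summed to 5756 to 9250 in IML, 3849 to 7682 in LMN and 4532 to 8034 in MMN, Fabp7 was higher in IML than in LMN, at 1.56 (log2, adjusted p 0.0126). Of the 2 measured markers of ependyma, Foxj1 was lower, at -0.23 (adjusted p 0.0325). No marker of oligodendrocytes passed, of 6 measured. The 3 neurofilament genes were all lower in IML than in LMN. None of the 6 general neuron markers passed the test, and they summed to 13750 to 19490 in IML, 18690 to 22280 in LMN and 16780 to 19340 in MMN. All of them but Map2 (0.04) were nominally lower in IML than in LMN. Their mean difference was -0.23 for IML less LMN, -0.10 for IML less MMN and 0.14 for LMN less MMN (log2). No marker was at 0. The part of these markers in the motor differences was not tested. In such captures, fewer cells of a type and less RNA per cell cannot be told apart.

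Of the comparisons made, only that of IML with LMN gave calls among the motors. At an adjusted p under 0.05 (limma, Benjamini-Hochberg over all 12422 probe sets), 3 of the 44 motor probe sets passed between these pools, which is 6.82% of them against 8.98% of all probe sets tested. Klc1, a light chain of kinesin-1, and Kif2a, a microtubule-depolymerising kinesin, were lower in IML, while another Klc1 probe set was higher. The 2 lower probe sets made up 4.55% of the members, against 3.53% over all probe sets, and the 1 higher probe set 2.27%, against 5.46%. The share of motors that passed was thus no higher than the background. Without the LMN sample of animal 2, 1 motor passed (Kif5b), at a background of 7.01%, and the Klc1 and Kif2a probe sets no longer did.

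Smaller differences between IML and LMN ran mostly one way. The difference was negative, lower in IML, for 32 of 44 motor probe sets (72.7%), against 57.0% of all probe sets, and for 35 of 44 without the LMN sample of animal 2. Taken by gene, with the brightest probe set of each, 25 of 33 motors were negative (75.8%). The median difference was -0.0826 over the motors and -0.0198 over all probe sets (log2). Without the LMN sample of animal 2 it was -0.076 and -0.0255. The gap to the background was thus smaller there, although more motors were negative. In animals 1 to 5 the motors' median was -0.12, -0.05, -0.09, -0.03 and -0.12. Over all probe sets it was -0.01, 0.01, -0.003, -0.06 and -0.02, so in animal 4 the motors were less negative than the background. Of the 44 motor probe sets, 28, 27, 26, 26 and 34 were negative in animals 1 to 5. The share of all probe sets was not counted by animal, so these counts have no background beside them. Before adjustment, 14 of 44 motors had a p under 0.05 (31.8%), against 23.5% of all probe sets, and 11 had the same sign in 5 of 5 animals (25.0%), against 20.7%.

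Against the mean of the somatic pools, no motor passed the adjusted test in IML, where 5.52% of all probe sets did. Before adjustment 9 of 44 motors had a p under 0.05 (20.5%), against 20.7% over all probe sets. A negative difference was found for 30 (68.2%), against 53.6%, and for 32 without the LMN sample of animal 2. The median was -0.0609 over the motors and -0.0076 over all probe sets with all samples. Without that sample it was -0.0568 and -0.0112. In animals 1 to 5 the motors' median was -0.08, -0.03, -0.08, 0.03 and -0.08. Over all probe sets it was 0.01, 0.01, 0.02, -0.05 and -0.03. Animal 4 thus went the other way, with 19 of 44 motors negative. Between IML and MMN no motor passed either, at a background of 0.346%. There 2 motors had an unadjusted p under 0.05 (4.55%), against 12.3% of all probe sets, and 26 were negative (59.1%), against 47.4%. The motors' median was -0.08, 0.01, -0.02, 0.05 and 0.0008 in animals 1 to 5, so its sign differed between animals. Over all probe sets it was 0.04, 0.01, 0.04, -0.03 and -0.04. Between LMN and MMN no motor passed, at a background of 0.0564%, and 4 had an unadjusted p under 0.05 (9.09%), against 11.6%. In that comparison 10 motors were negative (22.7%), against 42.2%, so 34 of 44 were nominally higher in LMN. Without the LMN sample of animal 2, 12 motors were negative, and the median was 0.0789 over the motors and 0.0226 over all probe sets. The motors' median LMN less MMN was 0.0019, 0.04, 0.06, 0.06 and 0.10 in animals 1 to 5. Over all probe sets it was 0.04, 0.0031, 0.04, 0.02 and -0.02. The comparisons share samples: IML with LMN and LMN with MMN both use the LMN samples.

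**Figure D1:**
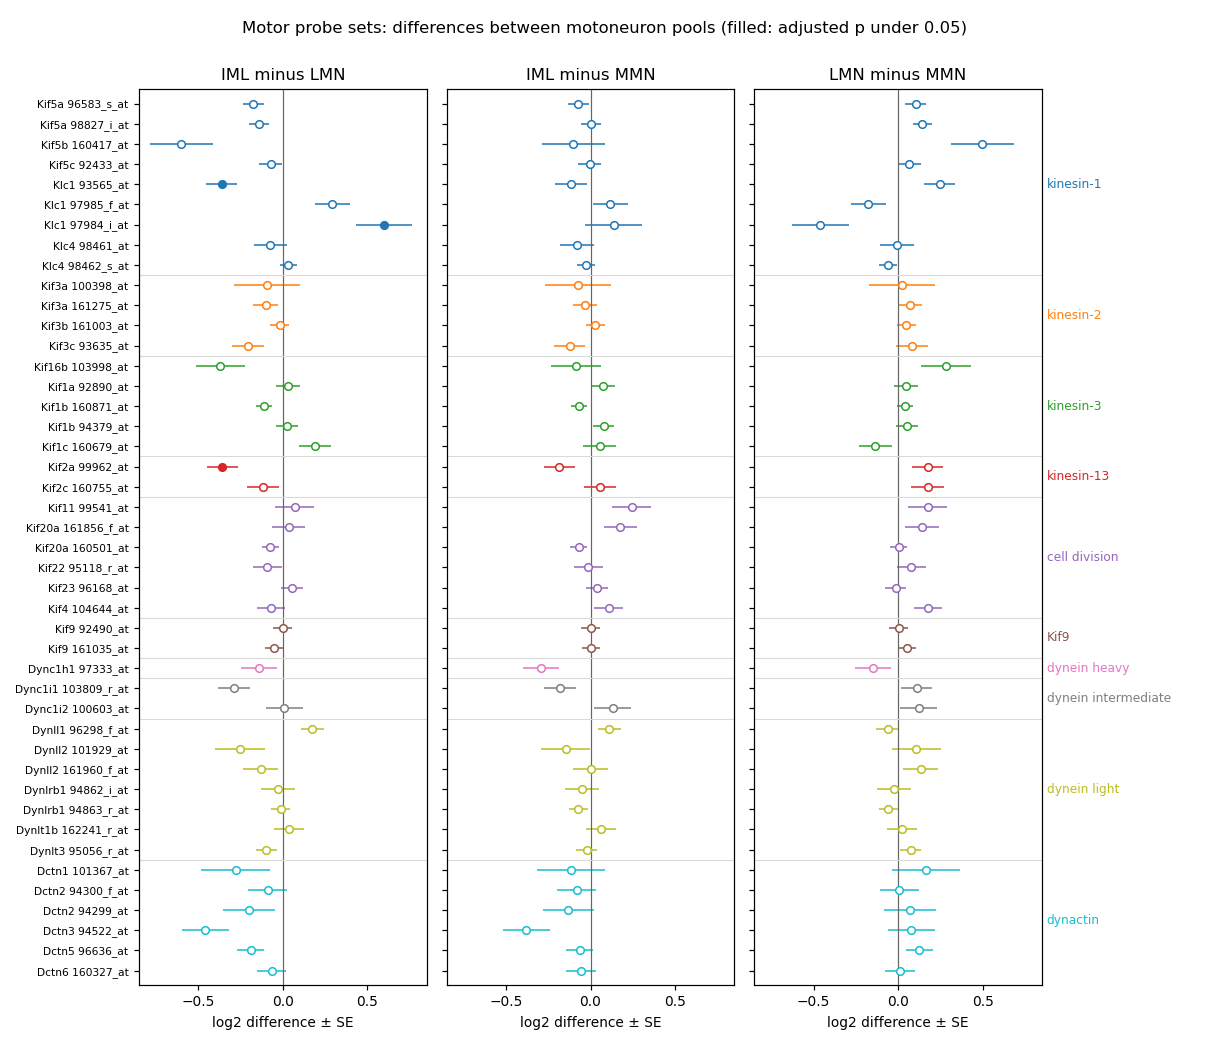
Each row is a motor probe set, grouped by role, and the x axes give its log2 difference with its SE (n = 5 animals) between IML and LMN, between IML and MMN and between LMN and MMN. Filled points had an adjusted p under 0.05: Kif2a at -0.36 and the Klc1 probe sets at -0.36 and 0.60, all between IML and LMN.

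Kinesin-1 is the main plus-end motor of the axon, built of heavy chains (Kif5a, Kif5b, Kif5c), which hold the motor domain, and light chains (Klc), which bind cargo. Its 9 probe sets covered 5 genes, and 2 of them, both of Klc1, passed the test between IML and LMN. The brightest Klc1 probe set (93565_at) had log2 intensities in animals 1 to 5 of 11.11, 11.59, 11.25, 11.51 and 11.52 in IML, 11.80, 11.84, 11.74, 11.44 and 11.96 in LMN and 11.49, 11.60, 11.53, 11.42 and 11.51 in MMN. The IML samples were below the LMN samples of the same animals in 4 of 5, and animal 4 was the exception. LMN also lay above MMN in 5 of 5 animals, although the ranges overlapped. The means were 11.40 ± 0.21 in IML, 11.76 ± 0.19 in LMN and 11.51 ± 0.06 in MMN (SD, n = 5). IML was lower than LMN, at -0.36 ± 0.09 (log2, SE), a fold of 0.778, with an adjusted p of 0.0331. The difference was -0.12 ± 0.09 (log2, SE) against MMN (adjusted p 0.679), and LMN less MMN was 0.25 ± 0.09 (log2, SE, adjusted p 0.33).

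A second Klc1 probe set (97984_i_at) went the other way. Its log2 intensities in animals 1 to 5 were 7.74, 7.98, 7.49, 7.49 and 7.99 in IML, 6.89, 7.85, 7.20, 6.90 and 6.86 in LMN and 7.93, 8.37, 7.14, 7.42 and 7.15 in MMN. Each IML sample was above the LMN sample of its animal, and the LMN sample of animal 2, at 7.85, stood far above the other LMN samples. IML was higher than LMN, at 0.60 ± 0.17 (log2, SE), 1.51-fold (adjusted p 0.0489). IML less MMN was 0.14 ± 0.17 (log2, SE, adjusted p 0.815) and LMN less MMN was -0.46 ± 0.17 (log2, SE, adjusted p 0.319). A further Klc1 probe set (97985_f_at), looked up after its values were seen, had 9.26, 9.42, 9.15, 9.22 and 9.42 in IML, 8.85, 9.33, 9.02, 9.01 and 8.81 in LMN and 9.23, 9.75, 8.81, 9.10 and 9.01 in MMN. It too was above LMN in IML in 5 of 5 animals, at 0.29 ± 0.10 (log2, SE), but did not pass the test (adjusted p 0.109). Probe sets with names in _f_at can bind related transcripts. Which transcript forms each Klc1 probe set reads, that in _i_at included, was not analysed here. Nor was it analysed whether 97984_i_at and 97985_f_at, whose numbers follow each other, are separate readings. Both were highest among the LMN samples in animal 2.

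The Klc1 probe sets were therefore set against each other within animals, a comparison chosen after their values were seen. The IML less LMN difference of 93565_at minus that of 97984_i_at was -1.54, -0.38, -0.78, -0.52 and -1.57 in the 5 animals (log2). The mean was -0.96 ± 0.56 (SD, n = 5). All 5 animals had the same sign, which gave an exact sign-flip p of 0.0625, two-sided, the smallest that 5 animals allow. For LMN less MMN the mean was 0.71 ± 0.43 (SD), positive in 5 of 5 animals, with the same exact p of 0.0625. For IML less MMN it was -0.25 ± 0.49 (SD), negative in 3 of 5, with an exact p of 0.375. With 97985_f_at in place of 97984_i_at, which may not be a separate reading, IML less LMN gave -0.66 ± 0.42 (SD). It was negative in 5 of 5 animals (exact p 0.0625). Over the 12 such tests, an exact p of 0.0625 became 0.0938 after Benjamini-Hochberg adjustment, so none passed 0.05, and the design could not have reached it.

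The promoter of Klc1, the motor gene with probe sets that passed in both directions, is shown because it holds the core of the cAMP response element, the binding motif of CREB-family factors. The window runs from 250 bases before to 50 after the start (RefSeq, GRCm38.p6, chr12:111758618-111758917, plus strand), and capitals mark the core, which begins 33 bases before the start.
Klc1: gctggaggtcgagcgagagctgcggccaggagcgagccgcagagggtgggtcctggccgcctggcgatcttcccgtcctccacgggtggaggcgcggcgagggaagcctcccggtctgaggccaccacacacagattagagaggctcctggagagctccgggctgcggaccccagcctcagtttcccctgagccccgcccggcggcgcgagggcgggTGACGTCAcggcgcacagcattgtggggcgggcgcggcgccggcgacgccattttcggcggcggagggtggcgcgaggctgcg

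Kif2a is a kinesin-13, which does not walk but removes tubulin from microtubule ends, and in mouse neurons it limits the growth of axon branches. It had log2 intensities in animals 1 to 5 of 8.77, 9.05, 9.11, 9.19 and 9.10 in IML, 9.00, 9.36, 9.73, 9.27 and 9.65 in LMN and 9.08, 9.10, 9.55, 8.99 and 9.42 in MMN. IML was the lower pool in every animal when set against LMN, and animal 4 had the smallest gap. The ranges of IML and LMN overlapped in one sample, LMN of animal 1, which lay below 4 of the 5 IML samples. The means were 9.04 ± 0.16 in IML, 9.40 ± 0.30 in LMN and 9.23 ± 0.24 in MMN (SD, n = 5). IML less LMN was -0.36 ± 0.09 (log2, SE), a fold of 0.78, with an adjusted p of 0.0307. IML less MMN was -0.18 ± 0.09 (log2, SE, adjusted p 0.44), and LMN less MMN was 0.17 ± 0.09 (log2, SE, adjusted p 0.488). Kif2c, the other member of the class, known from chromosome segregation, averaged 5.22 ± 0.19 in IML, 5.33 ± 0.10 in LMN and 5.16 ± 0.12 in MMN (SD, n = 5) and passed in no comparison.

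The Klc1 and Kif2a calls were lost when some samples were left out, and some were lost with all samples kept. Without the LMN sample of animal 2, IML less LMN was -0.35 ± 0.10 for Kif2a (log2, SE, adjusted p 0.0684), -0.38 ± 0.11 for Klc1 93565_at (adjusted p 0.0615) and 0.65 ± 0.19 for Klc1 97984_i_at (adjusted p 0.068). No motor passed between IML and LMN without animal 1, without animal 3 or without animal 5, where the share of all probe sets that passed also fell, to 5.63%, 3.77% and 2.99%. With all samples kept, the higher call, Klc1 97984_i_at, did not pass after scaling each array to its median (adjusted p 0.0574). Nor did it pass after quantile normalization (adjusted p 0.0526) or an offset of 32 added to the intensities (adjusted p 0.0686). No motor passed with no replicate block, or when only the IML and LMN samples were fitted. The direction of the 3 called differences was kept in every alternative tried.

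**Figure D2:**
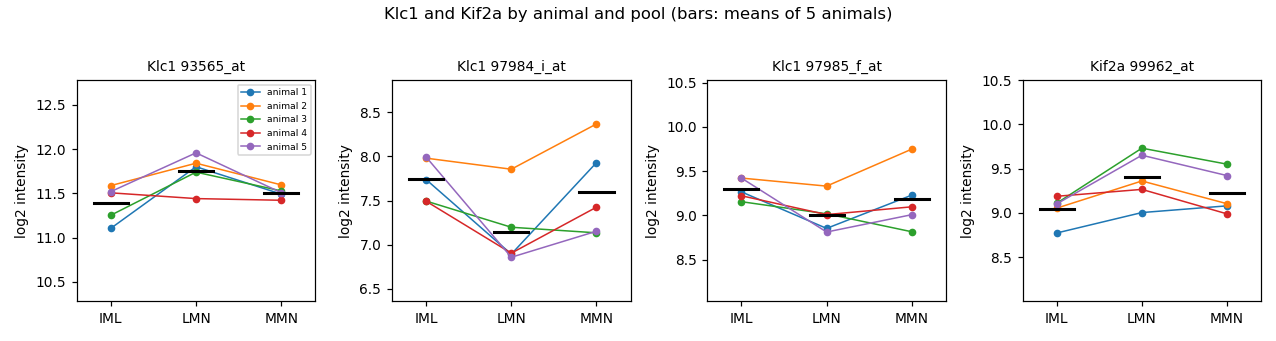
Log2 intensity (y axis) of 3 Klc1 probe sets and of Kif2a in IML, LMN and MMN, with a line per animal and bars at the means of 5 animals. Klc1 93565_at and Kif2a averaged lower in IML than in LMN, while Klc1 97984_i_at averaged 7.74 in IML and 7.14 in LMN.

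Kif5b, the kinesin-1 heavy chain that most cells express, was named after its values were seen because it passed without the LMN sample of animal 2. It had log2 intensities in animals 1 to 5 of 6.47, 8.48, 7.48, 7.97 and 8.10 in IML, 7.73, 8.44, 8.39, 8.06 and 8.88 in LMN and 7.38, 8.47, 7.51, 7.57 and 8.07 in MMN. The IML sample of animal 1 was the lowest of the 15, and animal 2 was nearly level across the pools. The difference between IML and LMN was -0.60 ± 0.18 (log2, SE) with all samples (adjusted p 0.0686) and -0.75 ± 0.18 without that LMN sample (adjusted p 0.0353). LMN less MMN was 0.50 ± 0.18 (log2, SE, adjusted p 0.326).

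Kif5a, the neuronal heavy chain whose human gene is mutated in spastic paraplegia and in amyotrophic lateral sclerosis, was dim on this array. Its brighter probe set (96583_s_at) had log2 intensities in animals 1 to 5 of 6.18, 6.09, 5.89, 6.11 and 6.22 in IML, 6.52, 6.19, 6.10, 6.24 and 6.32 in LMN and 6.46, 6.05, 5.86, 6.33 and 6.14 in MMN, below the median probe set of the array, at 7.10. IML was below LMN in 5 of 5 animals, at -0.18 ± 0.06 (log2, SE), but the difference did not pass (adjusted p 0.107, 95% interval -0.31 to -0.04). The dimmer one (98827_i_at) had 4.19, 4.30, 4.12, 4.40 and 4.19 in IML, 4.44, 4.31, 4.27, 4.39 and 4.50 in LMN and 4.22, 4.32, 4.06, 4.38 and 4.20 in MMN, and its IML less LMN was -0.14 ± 0.06 (log2, SE, adjusted p 0.166). Against MMN they gave -0.07 ± 0.06 (log2, SE) and 0.00 ± 0.06 (log2, SE), with adjusted p of 0.706 and 0.991. Kif5c, the other neuronal heavy chain, averaged 6.16 ± 0.14 in IML, 6.24 ± 0.18 in LMN and 6.17 ± 0.16 in MMN (SD, n = 5) and did not pass (IML less LMN -0.07 ± 0.07 (log2, SE), adjusted p 0.563). The light chain Klc4 had 2 probe sets, with IML less LMN of -0.07 and 0.03 (log2), and neither passed.

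Kinesin-2 motors carry vesicles and build cilia. All 4 probe sets, of Kif3a, Kif3b and Kif3c, had negative IML less LMN differences, from -0.21 to -0.02, and none passed. Kif3c, a neuron-enriched subunit, had log2 intensities in animals 1 to 5 of 8.45, 8.45, 8.40, 9.01 and 8.50 in IML, 8.62, 8.69, 8.81, 8.95 and 8.78 in LMN and 8.90, 8.58, 8.71, 8.78 and 8.45 in MMN. The IML sample of animal 4 stood above the other 4 IML samples. The IML less LMN difference was -0.21 ± 0.09 (log2, SE, adjusted p 0.209), and against MMN it was -0.12 ± 0.09 (log2, SE, adjusted p 0.658).

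Kinesin-3 motors are fast carriers of synaptic vesicle precursors (Kif1a, Kif1b) and of endosomes (Kif16b). Of 5 probe sets, 3 were nominally higher and 2 lower in IML than in LMN, and none passed. Kif16b had log2 intensities in animals 1 to 5 of 5.81, 6.02, 5.98, 6.50 and 6.12 in IML, 5.89, 6.27, 6.95, 6.50 and 6.66 in LMN and 5.48, 6.12, 6.76, 6.05 and 6.46 in MMN. IML was below LMN in 5 of 5 animals, by almost nothing in animal 4, and animal 3 was the highest in both somatic pools. Set against LMN, IML was at -0.37 ± 0.15 (log2, SE, adjusted p 0.153, 95% interval -0.69 to -0.05), and without animal 3 it was -0.22. Kif1a averaged 7.18 ± 0.16 in IML, 7.14 ± 0.20 in LMN and 7.10 ± 0.11 in MMN (SD, n = 5), with an IML less LMN of 0.03 ± 0.07 (log2, SE, adjusted p 0.852). The Kif1b probe sets gave -0.11 and 0.02, and Kif1c, which carries dense-core vesicles, gave 0.19 ± 0.10 (log2, SE, adjusted p 0.265).

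The 6 probe sets of kinesins known from cell division (Kif4, Kif11, Kif20a, Kif22, Kif23) were mostly dim, with 5 below the median probe set, and none passed in any comparison. Kif11, which slides spindle microtubules apart, had log2 intensities in animals 1 to 5 of 5.67, 5.62, 6.27, 5.54 and 5.49 in IML, 5.85, 5.62, 5.59, 5.59 and 5.60 in LMN and 5.66, 5.35, 5.43, 5.51 and 5.42 in MMN. The IML sample of animal 3 stood above all other samples. In the same sample Top2a, a marker of dividing cells, was at 7.17, against 5.64 to 6.21 in the other 14 samples, and no dividing-cell marker of the 6 measured passed the test. The part of such cells in the Kif11 value was not tested. IML less MMN was 0.24 ± 0.11 (log2, SE, adjusted p 0.418), and without animal 3 it was 0.0966. Kif9, known from the cilia and flagella of mouse and human cells, averaged 4.76 ± 0.12 in IML, 4.81 ± 0.18 in LMN and 4.76 ± 0.08 in MMN (SD, n = 5) on its dimmer probe set, and its 2 probe sets differed by at most 0.06 (log2) between any pools.

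**Figure D3:**
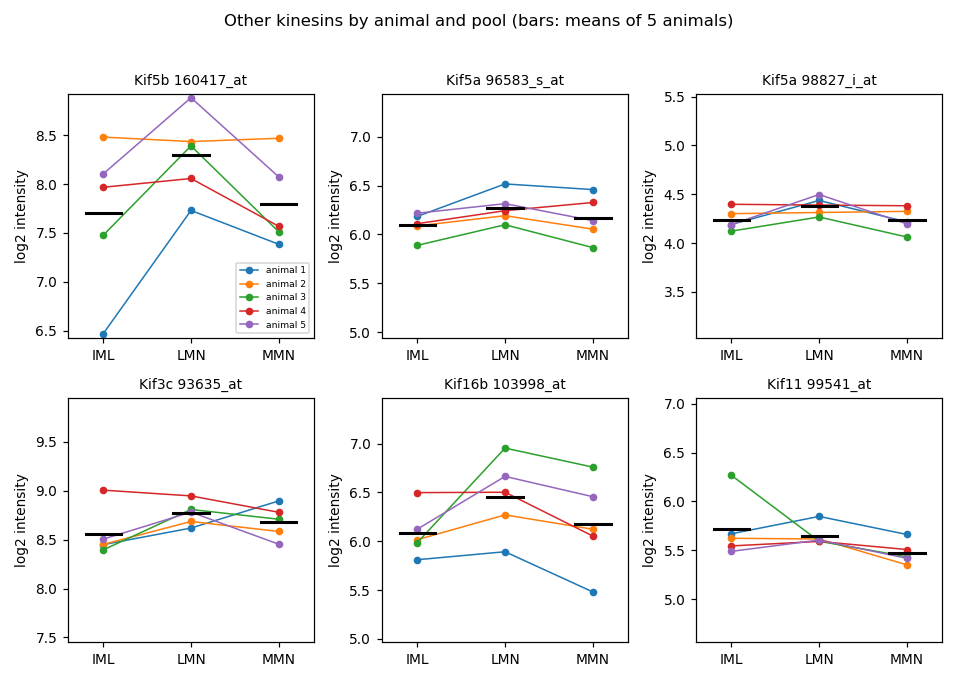
Log2 intensity (y axis) of Kif5b, both Kif5a probe sets, Kif3c, Kif16b and Kif11 in IML, LMN and MMN, with a line per animal and bars at the means of 5 animals. Most animals were lower in IML than in LMN for Kif5b, Kif5a, Kif3c and Kif16b, and the Kif11 value of animal 3 in IML, 6.27, stands apart.

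Cytoplasmic dynein is the minus-end motor of the axon, made of heavy chains that generate force and of intermediate, light intermediate and light chains that bind cargo and adaptors. Its 10 probe sets passed in no comparison. The heavy chain Dync1h1 had log2 intensities in animals 1 to 5 of 11.12, 11.52, 10.95, 11.62 and 11.38 in IML, 11.40, 11.60, 11.52, 11.28 and 11.52 in LMN and 11.68, 11.66, 11.56, 11.51 and 11.67 in MMN. The IML samples of animals 1 and 3 were the lowest of the 15, and the MMN samples lay above the LMN samples in 5 of 5 animals. IML less LMN was -0.14 ± 0.11 (log2, SE, adjusted p 0.46) and ran from -0.26 without animal 4 to -0.04 without animal 3, and IML less MMN was -0.29 ± 0.11 (log2, SE, adjusted p 0.296, 95% interval -0.53 to -0.06). It was the only motor outside dynactin with an unadjusted p under 0.05 between IML and MMN.

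The intermediate chain Dync1i1, the neuronal form of the chain that binds dynactin, had log2 intensities in animals 1 to 5 of 11.33, 11.52, 10.97, 11.35 and 11.21 in IML, 11.72, 11.68, 11.62, 11.37 and 11.43 in LMN and 11.43, 11.42, 11.36, 11.50 and 11.57 in MMN. IML was below LMN in 5 of 5 animals, but the ranges overlapped, and the IML sample of animal 3 was the lowest of all. Its IML less LMN difference was -0.29 ± 0.09 (log2, SE, adjusted p 0.0794) and IML less MMN was -0.18 ± 0.09 (log2, SE, adjusted p 0.475). Dync1i2, the form found in most cells, gave 0.01 ± 0.11 (log2, SE) against LMN and 0.13 ± 0.11 (log2, SE) against MMN (adjusted p 0.973 and 0.702).

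Of the 7 dynein light chain probe sets, 5 lay above the median probe set of the array. Dynll1, a small dimeric light chain that also binds many other proteins, had log2 intensities in animals 1 to 5 of 12.49, 11.70, 12.14, 12.19 and 12.11 in IML, 12.35, 11.60, 12.00, 11.80 and 12.01 in LMN and 12.16, 11.66, 12.12, 11.94 and 12.20 in MMN. IML was above LMN in 5 of 5 animals, with animal 4 showing the largest gap, although the spread between animals exceeded the difference. Between IML and LMN it differed by 0.17 ± 0.07 (log2, SE, adjusted p 0.149). Its paralog Dynll2 had 2 probe sets with the opposite sign, at -0.25 ± 0.15 (log2, SE, 101929_at, adjusted p 0.327) and -0.13 ± 0.10 (log2, SE, 161960_f_at, adjusted p 0.492). Whether Dynll1 and Dynll2 differ from each other was not tested. The roadblock light chain Dynlrb1 gave -0.03 and -0.01, and the Tctex-type light chains Dynlt1b and Dynlt3 gave 0.04 and -0.10 (log2) at intensities near the bottom of the array.

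Dynactin is built on a short actin-like filament, with a shoulder and arm (Dctn1, Dctn2, Dctn3) that bind dynein and microtubules and a pointed-end complex (Dctn5, Dctn6) that takes part in cargo binding. All 6 probe sets, of 5 genes, were above the median probe set, and none passed. All 6 were nominally lower in IML than in LMN and in IML than in MMN, and nominally higher in LMN than in MMN. Over all probe sets, 57.0% were negative for IML less LMN, 47.4% for IML less MMN and 42.2% for LMN less MMN. Of the 6, 2 are of Dctn2, and the comparisons share samples, so these directions are not independent. The median IML less LMN difference was -0.20, against -0.02 over all probe sets. These directions were the same after scaling each array to its median and after quantile normalization. Other settings changed them. Against LMN, 5 of 6 were negative in IML on the first technical array of each sample alone and without animal 3, and all 6 in the other settings that kept all 6 probe sets, that without the LMN sample of animal 2 included. Against MMN, 2 of 6 were negative in IML on the first technical array alone, 3 of 6 without animal 1 and 4 of 6 without animal 3. Between LMN and MMN, 1 of 6 turned negative on either technical array alone and without animal 1, 2 of 6 without animal 2, without animal 4 and without the LMN sample of animal 2, and 4 of 6 without animal 5.

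Dctn3, the smallest shoulder subunit, had the largest dynactin difference. Its log2 intensities in animals 1 to 5 were 9.58, 10.15, 10.11, 10.50 and 10.04 in IML, 10.55, 10.51, 10.64, 10.49 and 10.48 in LMN and 10.61, 10.30, 10.69, 10.69 and 9.99 in MMN. The 5 LMN samples lay within 10.48 to 10.64, and 4 of 5 IML samples were below all of them. The exception was IML of animal 4, level with LMN. Against LMN, IML stood at -0.46 ± 0.14 (log2, SE), a fold of 0.728 (adjusted p 0.0673), and IML less MMN was -0.38 ± 0.14 (log2, SE, adjusted p 0.307). Against the mean of the somatic pools it was -0.42 ± 0.12 (log2, SE), negative in 5 of 5 animals (adjusted p 0.0705). Without animal 1 these last 2 differences were -0.22 and -0.27.

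Dctn1, the large subunit that grips the microtubule, varied more between animals. Its log2 intensities in animals 1 to 5 were 8.99, 9.18, 8.62, 9.97 and 8.79 in IML, 9.63, 9.24, 9.24, 9.44 and 9.40 in LMN and 10.00, 9.18, 8.81, 9.65 and 8.50 in MMN. IML was below LMN in 4 of 5 animals and above it in animal 4, and the IML and MMN ranges overlapped almost fully. IML less LMN was -0.28 ± 0.20 (log2, SE, adjusted p 0.441, 95% interval -0.72 to 0.16), so a change of either sign lay within the error. Without animal 4 it was -0.48. Dctn2, the subunit also called dynamitin, gave -0.20 and -0.09 on its 2 probe sets, Dctn5 gave -0.19 ± 0.08 (log2, SE) with IML below LMN in 5 of 5 animals (adjusted p 0.165), and Dctn6 gave -0.07.

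The Dctn3 promoter is shown because it holds the same cAMP response element core as that of Klc1, beginning 81 bases before the start (RefSeq, GRCm38.p6, chr4:41723114-41723413, minus strand, capitals mark the core).
Dctn3: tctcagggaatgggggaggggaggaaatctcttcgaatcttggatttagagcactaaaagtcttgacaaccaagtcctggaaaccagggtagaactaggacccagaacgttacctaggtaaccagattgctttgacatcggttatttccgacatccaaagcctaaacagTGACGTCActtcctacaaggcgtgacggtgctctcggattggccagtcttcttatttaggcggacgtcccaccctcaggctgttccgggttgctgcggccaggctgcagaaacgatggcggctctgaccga

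Promoters were found for 27 of the 33 motor genes, 34 promoters in all. The core TGACGTCA, which reads the same on both strands, lay in 3 of 34 (8.82%), those of Klc1, Dctn3 and Kif5c, against 588 of 32851 promoters in the table (1.79%). In the Kif5c promoter (chr2:49619036-49619335, plus strand) it begins 26 bases before the start. The core GCGCATGC, searched on both strands as a form of the NRF1 motif, lay in 1 of 34 (2.94%), that of Kif3a, against 891 of 32851 (2.71%). The median GC content was 60.2% over the motor promoters and 52.7% over all. Neither Kif2a promoter held either core. A match of letters is a description of the sequence and says nothing of whether a factor binds there.

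**Figure D4:**
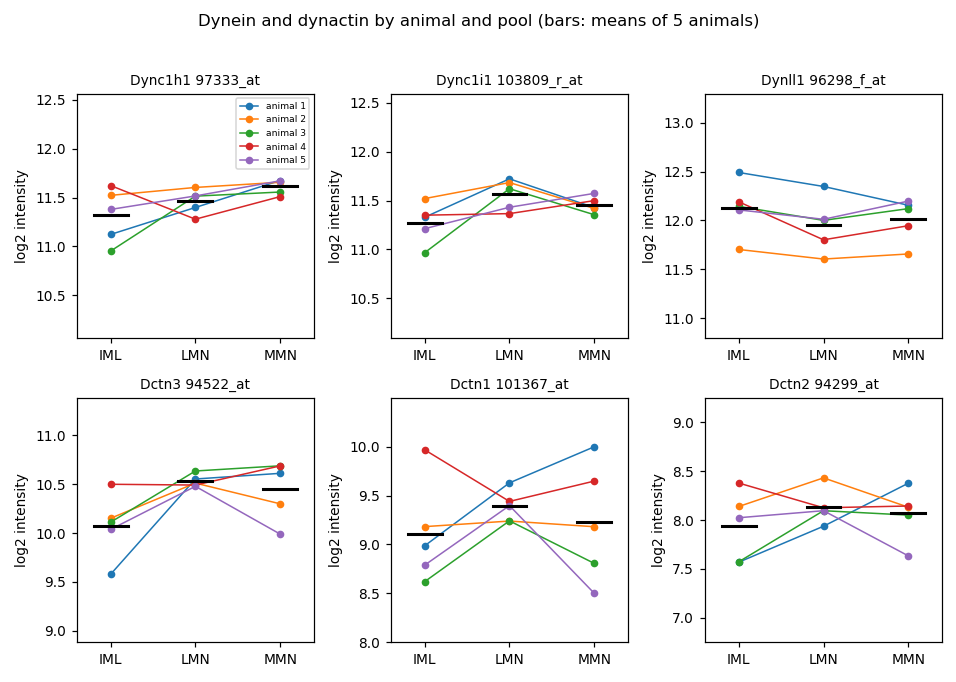
Log2 intensity (y axis) of Dync1h1, Dync1i1, Dynll1, Dctn3, Dctn1 and Dctn2 (94299_at) in IML, LMN and MMN, with a line per animal and bars at the means of 5 animals. Dctn3 averaged 10.08 in IML and 10.54 in LMN, and animal 4 was above or level with LMN in IML for Dctn1 and Dctn3.

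Among 48 listed partners, adaptors and regulators of the motors, 24 were measured, and 2 passed between IML and LMN and between IML and the somatic mean. That is 8.33% of them, against 8.98% of all probe sets between IML and LMN and 5.52% between IML and the somatic mean, so their share was near the background. Both bind LIS1 and dynein. Nde1, known from the division of neural progenitors and from dynein loading, was higher in IML, and its paralog Ndel1, known from neuronal migration and axonal dynein transport, was lower. The remaining 22 did not pass, and the median IML less LMN difference of the list was -0.06, against -0.02 over all probe sets. No partner passed between IML and MMN or between LMN and MMN.

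Nde1 had log2 intensities in animals 1 to 5 of 6.54, 7.31, 6.86, 6.06 and 6.93 in IML, 5.44, 6.58, 5.97, 5.69 and 5.94 in LMN and 6.67, 7.03, 5.98, 5.95 and 6.27 in MMN. This probe set was dim, with a mean of 6.35 over the samples and of 5.925 in LMN, below the median probe set of the array, at 7.10. IML was above LMN in 5 of 5 animals and LMN below MMN in 5 of 5. Animal 3 was almost level between LMN and MMN, and the ranges overlapped. The Nde1 difference, IML less LMN, was 0.81 ± 0.15 (log2, SE, adjusted p 0.00993), and against the mean of the somatic pools it was 0.59 ± 0.13 (log2, SE, adjusted p 0.0291). Without the LMN sample of animal 2 these were 0.82 ± 0.18 (adjusted p 0.0258) and 0.59 ± 0.14 (adjusted p 0.0503).

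Ndel1 had, on its brightest probe set (98882_s_at), log2 intensities of 9.98, 10.35, 10.14, 10.43 and 10.28 in IML, 10.61, 10.69, 10.69, 10.68 and 10.70 in LMN and 10.55, 10.48, 10.51, 10.64 and 10.17 in MMN. Which transcripts this probe set reads was not analysed here. The 5 LMN samples lay between 10.61 and 10.70, above all 5 IML samples, so the IML and LMN ranges did not overlap. How many of all probe sets part in this way was not counted. For Ndel1, IML less LMN was -0.44 ± 0.09 (log2, SE, adjusted p 0.0127), and against the mean of the somatic pools it was -0.33 ± 0.08 (log2, SE, adjusted p 0.0276). Without the LMN sample of animal 2 they were -0.45 ± 0.10 (adjusted p 0.0279) and -0.34 ± 0.08 (adjusted p 0.0469). The other Ndel1 probe sets, looked up after these values were seen, gave -0.56 (98884_r_at, adjusted p 0.00984) and 0.09 (98883_r_at, the dimmest, adjusted p 0.312) between IML and LMN. Pafah1b1, which encodes LIS1 itself, gave -0.20 ± 0.09 (log2, SE, adjusted p 0.222). The difference in response between Nde1 and Ndel1 was not tested.

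Between IML and LMN, Nde1 did not pass without animal 5 (0.77, adjusted p 0.0569) and Ndel1 did not pass without animal 3 (-0.41, adjusted p 0.0642). With all samples kept, Nde1 did not pass there with no replicate block (adjusted p 0.161), nor Ndel1 on technical set 1 alone (adjusted p 0.114). Against the mean of the somatic pools, Nde1 did not pass without animal 2, 3 or 5 (0.51 to 0.61) and Ndel1 did not pass without animal 1, 2, 3 or 4 (-0.36 to -0.27). Neither passed there with no replicate block (adjusted p 0.32 for Nde1 and 0.093 for Ndel1). Nde1 also did not on technical set 2 alone (adjusted p 0.0546), nor Ndel1 on technical set 1 alone (adjusted p 0.295).

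**Figure D5:**
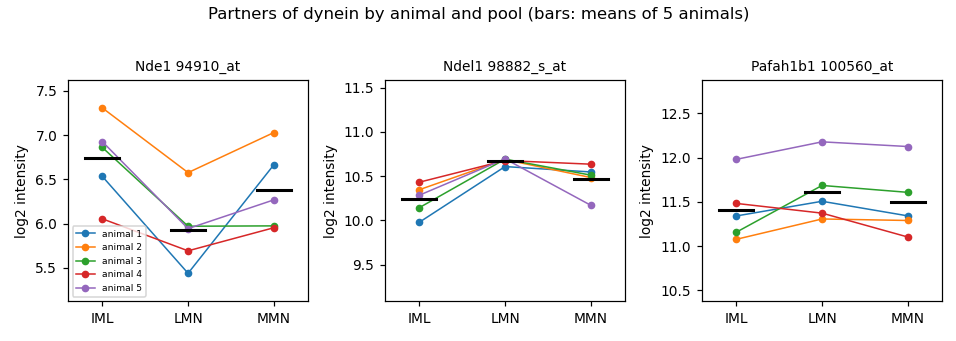
Log2 intensity (y axis) of Nde1, Ndel1 and Pafah1b1 in IML, LMN and MMN, with a line per animal and bars at the means of 5 animals. Nde1 was higher and Ndel1 lower in IML than in LMN in each of the 5 animals.

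Motors outside this transport system gave no call. Between IML and LMN 8.98% of all probe sets passed, and lists this short cannot be told apart from that share. Of 19 listed axonemal dynein genes, which beat cilia, 2 were measured (Dnah8 and Dnal4), and neither passed in any comparison. Of 22 listed myosins, which walk on actin, 10 were measured and none passed. Their median IML less LMN difference was 0.08, against -0.02 over all probe sets.

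The precision differed little between motors and other probe sets at the level of arrays. The median SD between the 2 arrays of a sample was 0.141 over the motors and 0.132 over all probe sets (log2), and between animals within a pool it was 0.185 and 0.171. The SD left after pool and animal was 0.154 over the motors and 0.117 over all. Kif5b, Dctn1, Kif3a (100398_at) and Klc1 (97984_i_at) varied most between animals, with SDs within pools of 0.577, 0.473, 0.459 and 0.418. Of the 10 motor genes with several probe sets, 4 had probe sets of opposite sign between IML and LMN (Kif1b, Kif20a, Klc1 and Klc4), so a single probe set does not stand for such a gene. Of the 44 probe sets, 21 lay below the median probe set of the array, and no detection calls were used here.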

How the data were processed

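Per the labels, RNA from 400 captures per pool and animal went through 2 rounds of amplification and was hybridised to Affymetrix arrays, and the authors normalized the signals with R-pack and deposited linear intensity values as inverse logs. The method behind that name is not given in the sources used here. Amplification of this kind favours 3' ends. Here 66 control probe sets of 12488 were left out and 12422 were tested. Symbols came from the platform's annotation, updated through a GRCm38.p6 gene table for 10817 probe sets, and promoters from RefSeq. Protein sequences were not used here.

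Intensities were taken to log2 and the 2 arrays of a sample averaged, which gave 15 samples. limma 3.58.1 in R 4.3.3 fitted pool and animal as fixed terms, followed by eBayes. All p-values are two-sided and were adjusted over the 12422 probe sets by the Benjamini-Hochberg method. The animal is a block because the labels take all 3 pools from each animal. In a check, samples of the same animal deviated together in all 15 pairs, with correlations from 0.288 to 0.747. Pairs from different animals ran from -0.614 to 0.387, so the ranges overlapped. The members and lists were chosen with earlier results of these data known. Members given in full were those that passed, Kif5a and Dctn1, and the smallest unadjusted p of each role class. Alternatives changed the block, technical arrays, scaling, dim filter, offset, variance model and samples. On simulated data (IML against the somatic mean, 12422 probe sets, 5 runs), 84% of log2 changes of 0.5 and 99.2% of changes of 1 were recovered, and 5.27% of calls were false. The changed probe sets were drawn at random, and the residual SD was 0.154 over the motors and 0.117 over all. Smaller changes and the comparison of IML with LMN were not simulated, so the recovery for the motors was not measured. The number of animals limits the precision.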

Additional observations from a re-analysis of the deposited data

Results flagged for a closer look

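In 48 checks of single samples against the other 4 of their pool, 3 values stood apart by a gap of more than 0.71 of the pool's range, Dixon's 95% limit, which chance passes in about 1 of 20 pools. Kif3c was at 9.01 in IML of animal 4, with a gap of 0.819 of the range. Kif11 was at 6.27 in IML of animal 3, with a gap of 0.769, and at 5.85 in LMN of animal 1, with a gap of 0.901. In the IML sample of animal 3, the summed intensity of 6 dividing-cell markers was also the highest of the 15, at 2642.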

How the results depend on the processing

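Of the values of named genes under alternatives, 1087 kept their direction and side of the threshold, 45 lost a call, 11 gained one and 23 changed sign. Between IML and LMN, 3 motors passed. This count was 0 with no replicate block, 5 with a random replicate block, 1 with technical set 1 alone (Kif2a), 1 with set 2 alone (Dctn3), 0 with only the pools of the contrast, 1 without the LMN sample of animal 2 (Kif5b), and 0 to 2 without each animal in turn. The share of all probe sets called moved with it: 8.98% with all data, then, in the same order, 1.09%, 10.0%, 4.84%, 5.74%, 5.68%, 7.01%, and 2.99% to 7.53%. Between IML and the somatic mean, 0 passed. This count was 1 with the random replicate block, with technical set 1 alone, with set 2 alone and with quantile normalization, and 0 to 2 without each animal in turn, where 2 came without animal 4. There the share of all probe sets was 5.52% with all data, then 6.73%, 2.45%, 4.98%, 6.16%, and 1.32% to 5.23% without each animal. Between IML and MMN and between LMN and MMN it was 0 throughout. The cause was not tested.

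No value that changed sign was called. For IML less MMN (log2), technical set 1 gave 0.024 (Kif5a 96583_s_at), -0.0257 (Kif5a 98827_i_at), 0.124 (Dctn1) and -0.0931 (Kif9), and set 2 gave -0.143 (Klc1 97984_i_at) and 0.0416 (Kif16b). Median scaling gave -0.0189 for Kif5a 98827_i_at and -0.0213 for Kif9, and quantile normalization gave -0.0198 and -0.0246. Against the somatic mean, set 1 gave 0.0034 for Dctn1 and set 2 gave 0.0562 for Kif9, which was 0.0174 against LMN. Leaving out each animal, IML less MMN ran from -0.038 to 0.268 (Klc1 97984_i_at), -0.0107 to 0.0108 (Kif5a 98827_i_at), -0.228 to 0.105 (Dctn1), -0.221 to 0.0843 (Kif16b), -0.0306 to 0.0242 (Kif9) and -0.227 to 0.102 (Kif5b). IML less LMN ran from -0.0831 to 0.13 for Kif11. LMN less MMN ran from -0.0212 to 0.295 for Dctn1 and from -0.0238 to 0.147 for Dctn3.

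Nde1 passed between IML and LMN in 15 of 17 alternatives and Ndel1 in 14 of 16. In that comparison Kif2a passed in 9 of 17, Klc1 93565_at in 8 of 17 and Klc1 97984_i_at in 4 of 16. Against the mean of the somatic pools, Nde1 passed in 10 of 16 and Ndel1 in 9 of 15.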
